A study of Drosophila melanogaster with 2 samples.

Results

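The 839 distant intronic peaks of the transcription factor Bab2 were described in Drosophila melanogaster embryos. They were taken from the 4720 peaks of the authors' optimal list on the dm6 genome build. A peak was a member when its summit lay more than 3000 bp from every protein-coding transcription start site (TSS), inside a protein-coding gene, in no exon of a protein-coding transcript, and on a main chromosome arm. Members made up 17.8% of the optimal list (Wilson 95% interval 16.7% to 18.9%). Within the optimal list the rule used position alone, so signal and sequence were free to differ from those of other listed peaks. Replicate agreement was bounded by how that list was selected, and host genes had to have intron sequence that meets the rule. Chromatin came from whole embryos of both sexes, pooled, aged 0 to 24 h. All embryos were of the strain bab2-GFP, in which an inserted transgene stably gives Bab2 with GFP at its C-terminus. Protein and bound DNA were precipitated with an antibody against GFP after sonication to fragments of 200 to 800 bp. The 2 libraries, replicates 2 and 3 of a single group, came from separate biosamples, and no untreated, mock or other genotype group was analysed here. A control experiment that the labels list as possible was not analysed here either, and nonspecific recovery of chromatin at these sites was therefore not tested. With 1 group, no test between conditions was possible. All intervals are at 95% and cover counting error only. The 839 peaks are not independent of each other, since 44 of them (5.24%) overlapped another optimal peak. The sources used here do not give the number of reads in each library.

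Bab2 (bric-à-brac 2) is a nuclear protein with a BTB domain, through which such factors pair with each other, and with a DNA-binding domain of the Pipsqueak type that favours AT-rich sequence. It is known for its part in leg segmentation, in formation of the ovarian terminal filament and in abdominal pigmentation. Long first introns in Drosophila often hold enhancers, stretches of DNA that transcription factors bind to control a promoter at a distance.

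The DNA at the summits is shown first for the 5 strongest members, ranked by the signal the authors gave each peak from both replicates together, because these carried the highest values described next. Each sequence is the reference genome (RefSeq, release 6 assembly, which is dm6) from 50 bp before to 50 bp after the summit, on the plus strand. Capitals mark the heptamer GTAAACA or its reverse complement TGTTTAC, the core recognised by forkhead factors, whose share among members is given with the motifs.
osa (chr3R:17704369-17704469): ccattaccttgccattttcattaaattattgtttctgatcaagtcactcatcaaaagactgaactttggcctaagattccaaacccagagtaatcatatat
CG32486 (chr3L:3060736-3060836): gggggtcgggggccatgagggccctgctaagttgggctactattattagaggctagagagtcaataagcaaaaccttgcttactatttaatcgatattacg
CG17124 (chr2L:10752052-10752152): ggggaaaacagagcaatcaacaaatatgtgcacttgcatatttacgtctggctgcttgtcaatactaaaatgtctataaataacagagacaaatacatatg
Gug (chr3L:8458263-8458363): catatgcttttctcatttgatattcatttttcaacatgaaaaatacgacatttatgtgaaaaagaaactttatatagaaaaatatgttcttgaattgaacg
S (chr2L:1072311-1072411): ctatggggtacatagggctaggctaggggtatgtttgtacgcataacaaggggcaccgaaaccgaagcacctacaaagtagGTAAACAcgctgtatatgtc
The window in Gug had the lowest GC content of these 5, 23.8%, and that in S the highest, 48.5%. A window with capitals was found in 54 of the 839 members. Besides S, strong members with the core lay in Raf, Dys, Rbfox1 and CG32066, and their windows are shown for comparison of where the core sits.
Raf (chrX:2300655-2300755): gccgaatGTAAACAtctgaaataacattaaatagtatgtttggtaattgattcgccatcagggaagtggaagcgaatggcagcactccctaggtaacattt
Dys (chr3R:19584926-19585026): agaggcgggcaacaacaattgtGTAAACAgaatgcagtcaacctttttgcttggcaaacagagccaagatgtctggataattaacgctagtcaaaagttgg
Rbfox1 (chr3L:10519095-10519195): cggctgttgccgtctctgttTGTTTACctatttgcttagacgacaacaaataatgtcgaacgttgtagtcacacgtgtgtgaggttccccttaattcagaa
CG32066 (chr3L:10656927-10657027): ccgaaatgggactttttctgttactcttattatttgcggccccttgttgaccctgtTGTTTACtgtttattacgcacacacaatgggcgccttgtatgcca

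The 20 strongest members included peaks in genes for chromatin regulators and for parts of the EGF receptor pathway. The signal is the authors' enrichment value, of unstated scaling, and each peak has a single value per list. The strongest member lay in intron 4 of osa, which encodes a subunit of the Brahma chromatin remodelling complex. It spanned chr3R:17704239-17704577, 13931 bp from the nearest TSS, and had a signal of 439 in replicate 2, 531 in replicate 3 and 972 in the pooled list, where it was the 43rd strongest optimal peak. It was 1 of 22 members among the 300 strongest optimal peaks. Members were thus a smaller part of these 300 than of the whole list, where they were 839 of 4720 (17.8%).

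Among the other chromatin genes, trx encodes a histone H3 methyltransferase of the trithorax group. Its peak (chr3R:14283725-14284014) had a signal of 213 in replicate 2, 262 in replicate 3 and 474 in the pooled list. The peak at chr3L:19903162-19903402, with signals of 206 in replicate 2, 288 in replicate 3 and 495 pooled, lay where Su(Tpl), an elongation factor gene, and Mi-2, which encodes the ATPase of a nucleosome remodelling and deacetylase complex, overlap. JIL-1, which encodes a histone H3 kinase, had a peak (chr3L:11084641-11084925) with 234 in replicate 2, 247 in replicate 3 and 482 pooled. Gug, the gene of the corepressor Atrophin, had another of the 5 strongest members (chr3L:8458160-8458496), with 271 in replicate 2, 344 in replicate 3 and 616 pooled.

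The genes of the EGF receptor pathway among the 20 strongest were S (Star), which encodes a membrane protein that helps to export the receptor's ligands, aos (argos), a secreted inhibitor of the receptor, and vn (vein), a secreted ligand. The S peak (chr2L:1072257-1072502) had a signal of 239.7 in replicate 2, 258 in replicate 3 and 500.4 pooled. The aos peak (chr3L:16480412-16480706), inside CG33158 as well, had 220.3 in replicate 2, 281 in replicate 3 and 498 pooled. The vn peak (chr3L:5824146-5824356) had 214 in replicate 2, 192 in replicate 3 and 411 pooled, and was 1 of 2 among the 20 strongest with the lower value in replicate 3. The other was the ush peak (chr2L:485764-485991; 226 in replicate 2, 212 in replicate 3, 445 pooled), in the gene of a GATA cofactor.

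The remaining strong members lay in genes of mixed kinds. The next strongest after osa were in genes without a role given here, CG32486 (359 in replicate 2, 498 in replicate 3, 864 pooled) and CG17124 (297 in replicate 2, 349 in replicate 3, 649 pooled). Signalling and kinase genes were Pak3 (498 pooled), fz, the Frizzled receptor gene (488 pooled), and mnb, the minibrain kinase gene (462 pooled). Transcription factor genes were CHES-1-like, of the forkhead family (411 pooled), and Hr4, a nuclear receptor gene of the ecdysone response (409 pooled). The rest of the 20 were Lrch, CG34417, babos and beat-Ib, with pooled signals from 413 to 476. All 20 ranked 338 or better in the replicate 2 list and 418 or better in the replicate 3 list, which hold 27372 and 25804 peaks. This was largely fixed in advance, because the pooled signal comes from the same libraries.

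Below the 20 strongest, the 5 strongest on each arm added EcR, the ecdysone receptor gene (181 in replicate 2, 215 in replicate 3, 394 pooled), and sim, which encodes the master regulator of the ventral midline (206 in replicate 2, 189 in replicate 3, 399 pooled). They also added rdx, the gene of a ubiquitin ligase adaptor of the Hedgehog pathway (140.02 in replicate 2, 245 in replicate 3, 384 pooled), and Raf, the kinase gene of the MAP kinase cascade (146 in replicate 2, 237 in replicate 3, 383 pooled). On arm 2R, Hr3 (shared with CG46321 and CG12912), ken and cv-2 completed the set, with pooled signals of 352, 340.02 and 335.

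The full lists of both replicates held nearly all members, but single members could differ in signal between them. Of the 839, 838 had a summit within 200 bp in the full list of replicate 2, 838 in that of replicate 3 and 837 in both. Of all 4720 optimal peaks, 4701 were in both. These full lists are labelled as peaks and background used to select the optimal list, so such matching was largely fixed in advance. The median signal of members was 54.7 in replicate 2 (exact interval from order statistics 53.2 to 57.2), 64.3 in replicate 3 (62.1 to 67.4) and 118 in the pooled list (113 to 122). Spearman's correlation between the replicates' signals was 0.693 across these 837 peaks, which share their libraries and are not replicates of each other. For 8 members the matching replicate peak was also the match of another optimal peak, and without them it was 0.703. Across all optimal peaks the replicate 3 signal was 1.24 times that of replicate 2 at the median. Relative to that ratio, 665 of the other 829 members (80.2%) lay within 1.5-fold, 22 were more than 2-fold higher in replicate 3 and 29 more than 2-fold higher in replicate 2. Among these 829, the widest gaps in each direction were at the peak in vri, a bZIP factor gene, with 88.8 in replicate 3 and 19.8 in replicate 2 (136 pooled), and at that in PRAS40, with 18.9 in replicate 3 and 61.9 in replicate 2 (81.4 pooled).

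**Figure D1:**
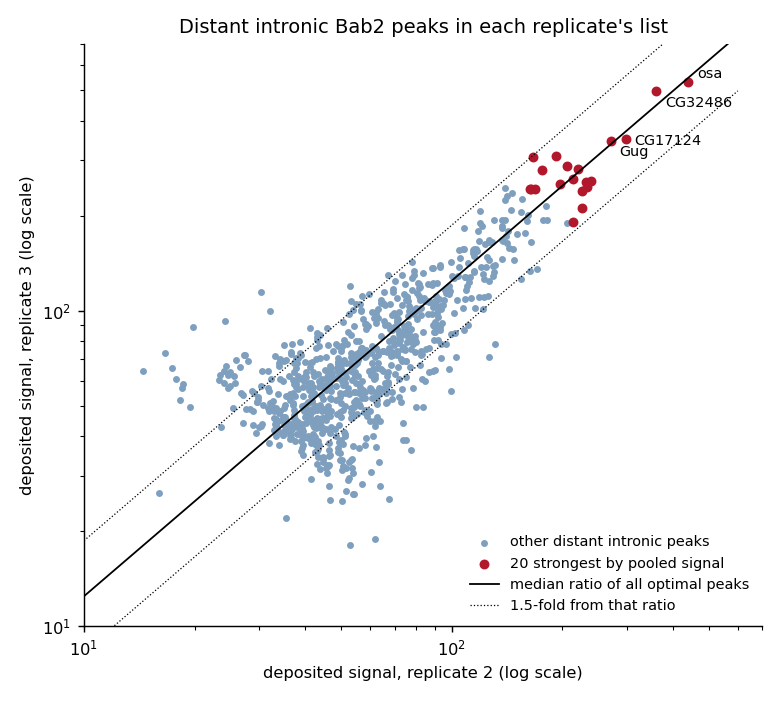
Deposited signal of distant intronic Bab2 peaks in the replicate 2 list (x axis) and the replicate 3 list (y axis), both on log scales without units, 1 point per peak, for the 829 peaks with a match of their own in both lists. The solid line is the median ratio of all optimal peaks, 1.24, and 80.2% of the points lie between the dotted lines 1.5-fold away. The 20 strongest members (red) sit at the upper right in both replicates.

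Set against other peaks, distant intronic peaks were less often among the strong ones than promoter and proximal intronic peaks. The interval of their difference from intergenic peaks included 0. The classes compared were 864 proximal intronic peaks (in introns, more than 500 bp and at most 3000 bp from a TSS), 744 intergenic peaks and 2190 promoter peaks (within 500 bp of a TSS). Their median pooled signals were 118 for distant intronic, 129 for proximal intronic, 119 for intergenic and 135 for promoter peaks. Among members, 364 (43.4%) were in the 2360 strongest optimal peaks. This share was 10.7 percentage points lower than for promoter peaks (Newcombe interval of the difference -14.6 to -6.71) and 7.43 points lower than for proximal intronic peaks (-12.1 to -2.68). The difference from intergenic peaks was -1.91 points (-6.80 to 2.98).

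Of the members, 640 (76.3%, Wilson 73.3% to 79.0%) had a summit within 200 bp among the 4720 strongest peaks of both replicates. The share was 5.09 points lower than for promoter peaks (difference -8.47 to -1.86). It differed by -2.31 points from proximal intronic peaks (-6.28 to 1.66) and by -0.735 points from intergenic peaks (-4.89 to 3.46). The share differed with signal. Among the 419 strongest members it was 99.5%, and among the 420 weakest 53.1%. A difference of this kind was largely fixed in advance, because the pooled signal comes from the same libraries. The optimal list was itself selected for agreement between these replicates, so no share here is independent of that selection.

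The members fell in 466 host genes, and a small number of genes held many of them. Eligible sequence, meaning intron sequence that meets the rule, covered 37.4 Mb in 3021 protein-coding genes, so 15.4% of the genes that could hold a member did. In 29 cases a summit lay inside more than 1 gene. A single member was found in 270 genes, 2 or more in 196, 3 or more in 106 and 4 or more in 53. Hosts had a median of 17.8 kb of eligible sequence, and eligible genes without a member 1.96 kb. The 15 genes with most members held 12.04% of the 839.

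The gene with most members was kirre, which encodes an immunoglobulin-domain membrane protein of myoblast fusion. It held 12 in 268 kb of eligible sequence, with pooled signals from 76.4 to 178. The next, sbb (scribbler), which encodes a nuclear repressor protein, held 11 in 42.1 kb, with signals from 94.0 to 266. Per 100 kb of eligible sequence this was 4.47 peaks in kirre and 26.1 in sbb, against 2.24 over all eligible sequence.

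Among the 15 were 3 nuclear receptor genes. Eip75B and ftz-f1 held 7 members each and Hr4 held 6. The Eip75B signals ran from 84.2 to 198, the ftz-f1 signals from 97.0 to 149.6 and the Hr4 signals from 83.5 to 409. These 3 receptors act in the response to the steroid ecdysone. Of other genes of that response, EcR held 3 members and Hr3 held 2. Eip74EF and br held none in 44.5 and 49.9 kb of eligible sequence. Like Eip75B and ftz-f1, Raf held 7, in 24.3 kb, with signals from 91.6 to 383, and CG12535 held 7 (80.6 to 227).

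The other genes among the 15 were the transcription factor genes hth (6 members), a partner of Hox proteins, pnt (6), an ETS factor of the EGF receptor pathway, and Antp (5), a Hox gene whose 5 peaks also lay in the overlapping CG46458. With them were sick (6), Drak (6), a kinase gene of myosin regulation, and the cell junction genes ed (5) and pyd (5). The last was cv-c (5). In all, 12 genes held 5 members, and of these the 4 with most eligible sequence are among the 15. Signals within 1 gene could differ widely. In Hr4 the strongest peak (chrX:1947634-1947823) had 163 in replicate 2, 243 in replicate 3 and 409 pooled. A peak 951 bp away (chrX:1948490-1948913) had 29.8 in replicate 2, 53.4 in replicate 3 and 83.5 pooled. In pyd all 5 were above the median of the members, from 133 to 185.

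**Figure D2:**
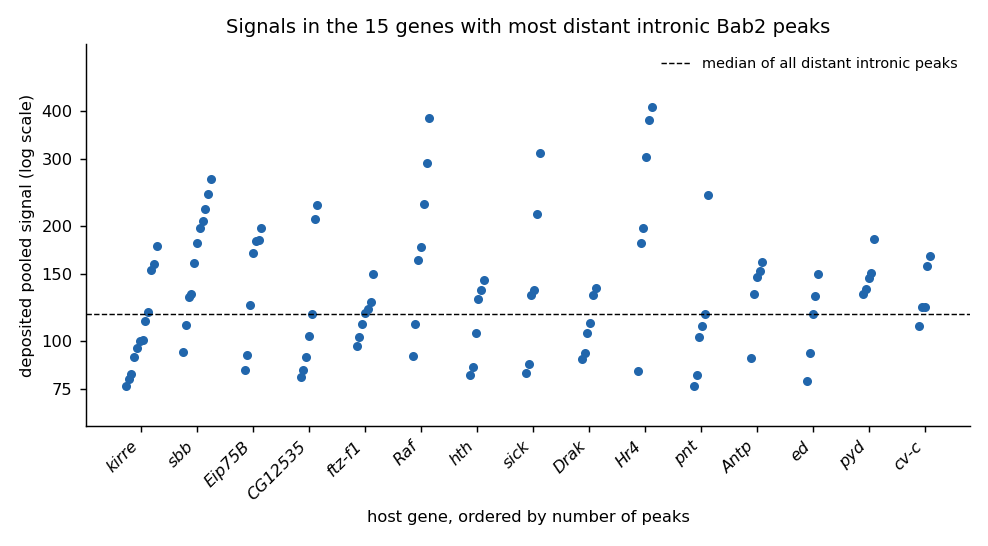
Deposited pooled signal (y axis, log scale, no units) of each distant intronic Bab2 peak in the 15 genes with most such peaks (x axis, in order of number, from 12 in kirre to 5 in cv-c; of 12 genes with 5 peaks, the 4 with most eligible sequence are shown), 1 point per peak. The dashed line is the median of all 839 members, 118. In kirre 8 of 12 points lie below it, and the highest values are in Hr4 (409) and Raf (383).

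Runs of at least 4 members, each within 10 kb of the next, were found at 22 places. The largest held 10 of the sbb peaks over 29.1 kb on 2R. Runs of 5 lay in shn, cv-2, msn, simj, ftz-f1, pnt and Raf and across gpp and Dmtn. Of these, shn encodes a zinc finger factor of the BMP pathway and cv-2 a secreted BMP-binding protein. The 5 Raf peaks of its run spanned 7.30 kb, with pooled signals from 111 to 383. Another optimal summit lay within 5000 bp of 50.9% of them (47.5% to 54.3%), against 65.9% of proximal intronic peaks (62.6% to 68.9%), 50% of intergenic peaks (46.4% to 53.6%) and 51.9% of promoter peaks (49.8% to 54.0%).

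The hosts were then counted in 7 gene lists, each beside all eligible genes in the same classes of eligible length, because long introns can hold more peaks. The lists were chosen with earlier results of these data known, and a count is a description without a test. Genes of receptor and cytoplasmic signalling held members most often, in 34 of 75 eligible genes (45.3%, Wilson 34.6% to 56.6%), where all genes of the same length classes gave 21.4%. Their density was 6.50 members per 100 kb (exact Poisson 5.08 to 8.18), against 2.75 in all eligible genes at the same length classes. Raf had 7, pnt 6 and shn 5, and fz and mam, a Notch coactivator gene, 4 each.

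Other genes of this list are given as examples, chosen after their values were seen. Dad, the inhibitory Smad of the BMP pathway, held 3, of which the strongest (chr3R:17065020-17065238) had 139 in replicate 2, 224 in replicate 3 and 369 pooled. Socs36E, an inhibitor of JAK/STAT signalling, also held 3, and its strongest (chr2L:18145397-18145563) had 117 in replicate 2, 157 in replicate 3 and 280.1 pooled. The EGF receptor inhibitors aos and sty held 1 each (498 and 83.6 pooled). Among receptor genes, N (Notch) held 2 in 25.1 kb of eligible sequence, the stronger of 332 pooled. Egfr held 1 in 13.9 kb, of 83.3 pooled. Pvr, Alk and sev held none, but had only 3.94, 0.546 and 4.59 kb of eligible sequence. Longer genes of the list without a member included kuz (74.0 kb), rl (44.0 kb) and pan (24.5 kb).

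Transcription factor genes of patterning and cell fate held members in 32 of 92 (34.8%, 25.8% to 44.9%; 26.2% in the same length classes), at 4.19 per 100 kb (3.34 to 5.18; 2.30 in the same length classes). The interval of the share includes the value of the length classes, and that of the density lies above it. Genes with most members were Eip75B, ftz-f1, hth and pnt, followed by Antp, shn and ush with 5 each. Of these, pnt and shn also count in the signalling list. The bab genes were among the hosts. Of 4 members in bab2 itself, the strongest (chr3L:1166889-1167312) had 102 in replicate 2, 127 in replicate 3 and 228 pooled, and bab1 held 2, of 110.5 and 84.9 pooled. The extent of the inserted bab2 transgene is not given in the labels, and its part in the bab2 values was not tested.

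Chromatin and Polycomb or trithorax genes had little eligible sequence, and 12 of 40 eligible genes were hosts (30%, 18.1% to 45.4%; 13.4% in the same length classes). Besides osa (2 members) and trx (2), they included Tlk, a kinase gene of chromatin assembly, with 2 (272 and 76.9 pooled). The list also holds transcription factor genes that count as hosts. Among them were Myc with 2 (207 and 98.4 pooled), E2f1 with 2 (93.7 and 79.6 pooled) and Mnt with 1 (105 pooled). The density over the whole list was 5.35 per 100 kb (3.12 to 8.57), against 3.01 in the same length classes.

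Genes of neuronal excitability stood at the other end. Only 5 of 69 eligible ion channel and neurotransmitter receptor genes held a member (7.25%, 3.13% to 15.9%), where the same length classes gave 24.6%. The density was 0.473 per 100 kb (0.190 to 0.974), against 2.35 in the same length classes. The 5 were the calcium channel subunit genes Ca-beta (2 members, the stronger 152 pooled) and Ca-alpha1T (2, 125), the potassium channel genes Shal (1, 164) and Shab (1, 85.7), and Ih (1, 160), which encodes a cation channel opened by hyperpolarisation. Of RNA-binding and splicing regulators 8 of 39 were hosts (20.5%, 10.8% to 35.5%; 22.03% in the same length classes), at 0.863 per 100 kb (0.460 to 1.48; 1.36 in the same length classes). Both intervals include the value of the length classes. They were led by pum, a translational repressor gene, with 3 members of at most 87.1 pooled, and by Rbfox1, a splicing factor gene, with 2 of 253 and 230.3 pooled.

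The share intervals of the remaining lists also included the share of their length classes. Axon guidance and cell adhesion genes held members in 24 of 91 (26.4%, 18.4% to 36.3%; 31.9% in the same length classes), with kirre first and then Ten-a, Nrg, Ptp10D and Sema1a at 4 each. Cytoskeleton and muscle genes gave 12 of 54 (22.2%, 13.2% to 34.9%; 17.7%). Among these, Dys, the dystrophin gene, held 2 strong members. The peak at chr3R:19499123-19499323 had 111 in replicate 2, 141 in replicate 3 and 254 pooled, and the peak at chr3R:19584764-19585187 had 126 in replicate 2, 124 in replicate 3 and 248 pooled.

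**Figure D3:**
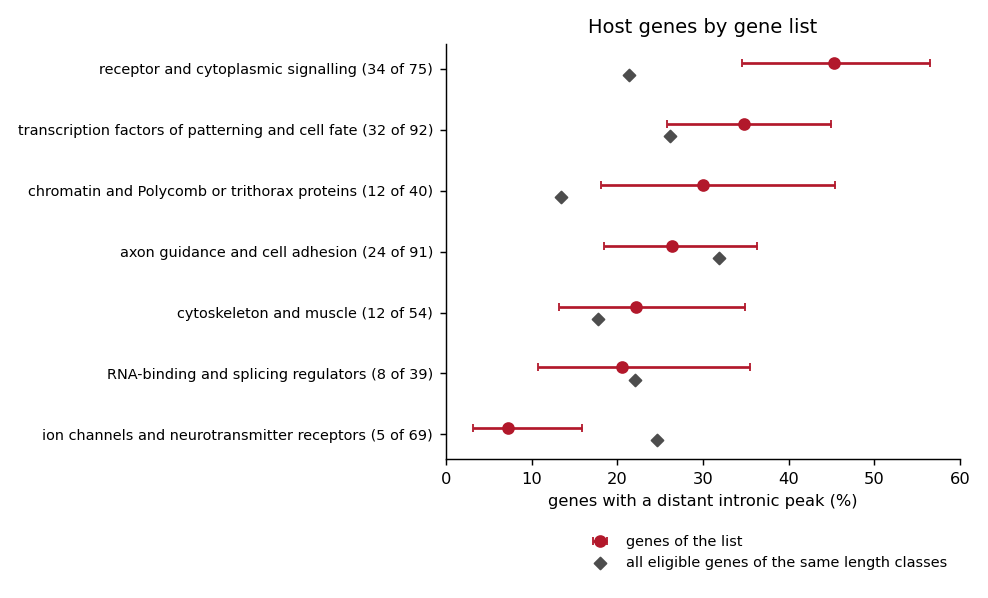
Percentage of the eligible genes of each list that hold a distant intronic Bab2 peak (x axis), 1 list per line with its number of hosts and of eligible genes. Red points show the list with its Wilson 95% interval and grey diamonds all eligible genes in the same length classes. The signalling list lies highest at 45.3% and the ion channel list lowest at 7.25%, each with its diamond outside the interval.

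Host genes also had a Bab2 peak at their own promoter more often than other eligible genes. A promoter summit was found at 172 of 466 hosts (36.9%) and 587 of 2555 eligible genes without a member (23.0%), a difference of 13.9 percentage points (Newcombe 9.36 to 18.7). With the 2360 strongest optimal peaks alone it was 6.89 points (2.22 to 12.3). The difference was also above 0 in each length class over 1 kb of eligible sequence, while genes with less held 4 hosts. For example, among genes with 10 to 20 kb it was 28.3 points (18.2 to 38.4), from 42.2% of hosts and 13.9% of the others. A promoter peak was nonetheless absent at most hosts, kirre, ftz-f1 and Raf among them. For 617 members the nearest TSS belonged to a host gene, and for 222 it belonged to another gene.

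Within introns, members were densest close to the 3000 bp limit and in first introns. There were 38.6 members per Mb of eligible sequence at 3 to 5 kb from a TSS (exact Poisson 34.2 to 43.4), 30.6 at 5 to 7.5 kb (26.4 to 35.3), 25.4 at 7.5 to 10 kb (20.9 to 30.5) and 23.0 at 10 to 15 kb (19.2 to 27.3). Farther out the density was 14.2 at 15 to 20 kb (10.3 to 18.9), 17.4 at 20 to 30 kb (13.2 to 22.6) and 3.26 beyond 30 kb (2.09 to 4.85). The last bin held 24 members in 7.36 Mb, and reached into introns where the nearest TSS was up to 1348253 bp away. Annotated transposable elements covered 8.24% of eligible sequence and held 2 members (0.238%), and how far such sequence could be mapped was not tested. Signal did not follow distance in the same way. Its median stayed between 111 and 124 in the 7 bins, and the intervals of all bins overlapped. The farthest member lay 76879 bp from a TSS, in hth (chr3R:10537185-10537608), with a signal of 39.8 in replicate 2, 61.9 in replicate 3 and 105 pooled.

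First introns of the canonical transcripts held 310 members (36.9%, Wilson 33.7% to 40.3%) in 22.03% of the eligible sequence. The density was 37.6 per Mb in first introns (33.6 to 42.1) and 18.1 per Mb elsewhere (16.6 to 19.8). Within each distance range the first introns again had the higher value. It was 48.7 against 33.7 per Mb at 3 to 5 kb, 39.3 against 24.1 at 5 to 10 kb, 28.6 against 17.5 at 10 to 20 kb and 38.1 against 13.9 at 20 to 30 kb, with intervals that did not overlap in these 4 ranges. Beyond 30 kb it was 8.02 (2.19 to 20.5) against 2.92 (1.78 to 4.50), which overlapped. Members lay within 500 bp of an exon in 57 cases (6.79%), against 14.7% of eligible sequence.

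On the X chromosome there were 29.2 members per Mb of eligible sequence (195 peaks; 25.3 to 33.6), against 21.0 on the autosomes (644 peaks; 19.4 to 22.6), a ratio of 1.39 (exact 1.18 to 1.64). For all other optimal peaks, promoter peaks among them, the ratio was 1.01 (0.929 to 1.10), but per Mb of arm. Of the optimal peaks on the X, members were 22.1%, and of those on the autosomes 16.8%. Proximal intronic peaks were also a larger part on the X, with 209 of 883 peaks against 655 of 3837 on the autosomes. Whether the higher X density is particular to members was not tested. The autosomes carried 6.84 Mb of eligible sequence beyond 30 kb from a TSS and the X 0.514 Mb. Within 30 kb the ratio was 1.16 (0.982 to 1.37), an interval that includes 1. In each range up to 30 kb the X value was the higher, with overlapping intervals. Beyond 30 kb the X had 13.6 per Mb (7 peaks; 5.47 to 28.1) and the autosomes 2.48 (17 peaks; 1.45 to 3.98), which did not overlap. The large autosomal arms had 23.9 (2L), 22.8 (2R), 20.7 (3L) and 19.2 (3R) members per Mb. Chromosome 4 had no member in 0.388 Mb, which allows up to 7.73 per Mb by a limit of 3 counts (exact Poisson upper bound 9.51).

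**Figure D4:**
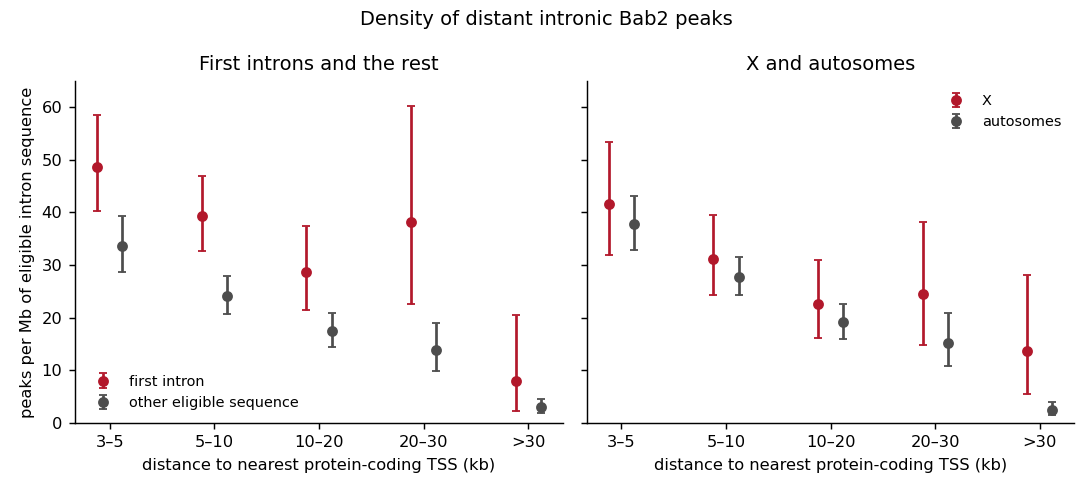
Distant intronic Bab2 peaks per Mb of eligible intron sequence (y axis) by distance to the nearest protein-coding TSS in kb (x axis), with exact Poisson 95% intervals. The left panel compares first introns (red) with other eligible sequence (grey), and the right panel the X (red) with the autosomes (grey). First introns lie above the rest in all 5 ranges. The X and autosome intervals overlap in all ranges up to 30 kb but not beyond it.

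The summits lay in AT-rich troughs. The median GC content of windows reaching 50 bp to either side of the summit was 33.7% (exact interval 32.7% to 33.7%), against 40.6% in 356483 windows of the same length tiled over eligible intron sequence and 41.6% in windows 500 bp to either side of the members. Of the members, 79.1% lay below the median of the tiles. In 50 bp bins the mean fell to 34.4% at the summit, with shoulders of 44.0% and 43.9% at 225 bp on either side, above the 39.96% and 40.3% seen at 975 bp. This trough was shared with the other classes. The median was 33.7% for proximal intronic peaks as well, and the mean at the summit was 34.5% for these, 35.4% for intergenic and 36.8% for promoter peaks.

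**Figure D5:**
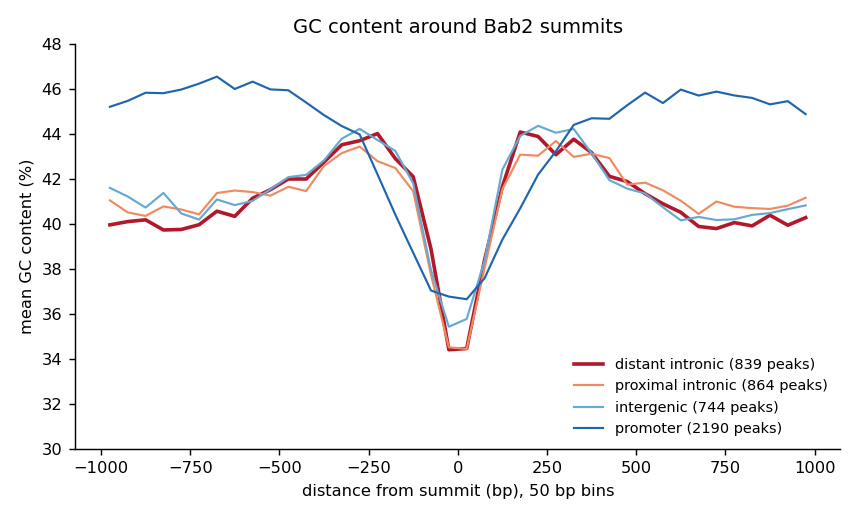
Mean GC content in percent (y axis) in 50 bp bins by distance from the summit in bp (x axis) for distant intronic (red, thick), proximal intronic, intergenic and promoter Bab2 peaks. Distant intronic peaks dip to 34.4% at the summit between shoulders of 44.0% and 43.9%, close to the curves of proximal intronic and intergenic peaks, whereas promoter peaks have GC-rich flanks.

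Because of this trough, each motif was counted at the summits beside all tiles, tiles with the same GC content and the flanking windows. In all, 22 motifs and 2080 hexamers were counted on both strands, and intervals are not adjusted for that number. The forkhead core GTAAACA was added after the hexamers had been ranked. The 5 hexamers with the highest ratio to all tiles, among 550 found in at least 5% of members, were TACCTA (5.13% of members, 2.28% of tiles), GTAAAC (10.1%, 4.55%), TAAACA (22.1%, 2.20 times the share of tiles), AGTGTA (8.10%, 3.96%) and TGTACA (5.60%, 2.76%). GTAAAC and TAAACA overlap and make up GTAAACA, so their counts are not separate. In the order given, the 5 hexamers were at 2.92%, 5.19%, 13.0%, 4.55% and 3.39% of tiles of the same GC content. Flanks gave 1.85%, 4.53%, 10.6%, 3.40% and 3.75%. Proximal intronic peaks gave 3.59%, 8.56%, 17.4%, 9.14% and 5.79%, and intergenic peaks 4.30%, 5.38%, 13.6%, 8.87% and 3.90%. Only for TAAACA did the intervals of the differences from both these classes exclude 0.

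The heptamer GTAAACA was found at 54 members (6.44%, Wilson 4.97% to 8.30%), against 1.98% of all tiles, 2.29% of tiles of the same GC content and 2.32% of flanks. Its matches numbered 71.5 per 100 kb within 50 bp of the summit, 33.4 at 50 to 100 bp, 26.2 at 100 to 200 bp and 22.2 at 200 to 500 bp. The core was put together from hexamers picked for their high share in the same windows within 50 bp. Its excess there over tiles, flanks and bases farther out was therefore partly fixed in advance. Differences from other peak classes carry this selection as well. The share at members was 3.21 points above that of intergenic peaks (Newcombe 1.09 to 5.35) and 2.69 points above that of promoter peaks (0.979 to 4.69). The difference from proximal intronic peaks was 1.34 points (-0.885 to 3.61). Members with the core had a median pooled signal of 117 (95.6 to 149), against 118 (113 to 122) for those without it. The 54 lay in 52 host genes. In the windows shown earlier, the core sat near the left end in Raf and near the right end in S. It read GTAAACA on the plus strand in Raf, Dys and S, and TGTTTAC in Rbfox1 and CG32066. A match of these letters does not show which factor was there.

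For the AT-rich motifs TAATAA and TATAAA the share at members lay above that of all tiles, and below or close to that of tiles of the same GC content. The TAA repeat TAATAA, a sequence recognised by Bab proteins in vitro, was found at 15.1% of members, 12.6% of all tiles and 18.8% of tiles of the same GC content. The TATA-type hexamer TATAAA was at 19.5% of members, 12.7% of tiles and 19.2% of tiles of the same GC content. The DREF element TATCGATA, common at housekeeping promoters, was found at none of the 839 members, which allows a share of up to 0.358% by a limit of 3 counts (Wilson upper bound 0.456%), against 4.16% of promoter peaks and 0.301% of tiles of the same GC content. The E-box CAGCTG was at 2.03% of members and 5.94% of promoter peaks, a difference of -3.91 points (-5.22 to -2.41), and at 2.25% of tiles of the same GC content. The GAGA factor motif GAGAG was at 9.89% of members, against 9.50% of promoter peaks, 8.94% of tiles of the same GC content and 14.0% of flanks. The STAT site TTCNNNGAA was at 4.65% of members and 3.62% of tiles of the same GC content, and its share was 2.22 points above that of proximal intronic peaks (0.460 to 4.06). Its difference from intergenic peaks was 1.83 points (-0.0782 to 3.73).

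Some members were near starts of noncoding genes, which the rule did not use. An annotated TSS of any kind lay within 3000 bp of 76 members and within 500 bp of 23. How much eligible sequence lies as close to such starts is not given here. The strongest of the 23 was the CG17124 peak shown earlier (649 pooled), 164 bp from the start of an ncRNA without a name. Of those with a named RNA, the strongest were beside lncRNA:CR44867 in beat-Ib (419 bp away, 413 pooled) and lncRNA:CR44478 in Socs36E (398 bp, 280.1 pooled). Next were snoRNA:Or-ACA6 in egr (496 bp, 259 pooled) and lncRNA:CR45888 in dlp (47 bp, 258 pooled).

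At the limit of 3000 bp, just inside it were peaks in siz (3003 bp, pooled signal 165), CG32066 (3004 bp, 229.96) and CG33181 (3017 bp, 77.7). Just outside were peaks in shep and tna (both 2994 bp, 152 and 98.6) and Mnt (2975 bp, 223).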

How the data were processed

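ChIP-seq peak lists of Bab2-GFP embryos were used from 1 group of 2 libraries (replicates 2 and 3). The authors deposited a list per replicate, a pooled list and, by the irreproducible discovery rate procedure, an optimal list, made from alignments and 1 further file whose kind is not stated, per the README files. The aligner, peak caller, versions and read depths are not given in the sources used here. Of the deposited columns, the signal per peak and the summit offset were used, on dm6. The signal served only to describe and rank peaks within a list. Lists on dm3 were not used.

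TSSs (19252 positions of 13945 protein-coding genes), introns and exons came from Ensembl release 115, and bases from the RefSeq release 6 assembly. The canonical transcript numbered introns. Eligible sequence was tiled in windows as long as those at the summits. Shares carry Wilson, differences Newcombe, counts per Mb exact Poisson and medians order-statistic intervals, all at 95%. The 8 gene lists hold 702 names, of which 22 were matched through a synonym and 2 were not matched. The result of 1 list is not reported here. The counting steps were tested on simulated data. Members, gene lists and motifs were chosen with earlier results of these data known, and the forkhead core, the X ratio, the promoter comparison of hosts and the 30 kb limit after seeing the data. Genes were named by rule: the 20 strongest members, the 5 strongest per arm, the 15 genes with most members, up to 5 genes per list, 5 hexamers and the 3 peaks on each side of 3000 bp. Others were named after their values were seen. Versions were matplotlib 3.10.9, scipy 1.17.1, pandas 2.3.3, numpy 2.4.6 and Python 3.11.15.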

Additional observations from a re-analysis of the deposited data

How the results depend on the processing

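Taking TSS limits of 2000 or 5000 bp, TSSs of all annotated genes, other windows, other matching distances, the longest transcript, the strongest peaks of 1 replicate or the 2360 strongest optimal peaks moved 17 recomputed values by more than their error, weakened 2 and reversed none. With the 2360 strongest peaks there were 364 members in 261 host genes, a median signal of 181, 99.5% in both replicates and 41.5% in first introns, as fewer and stronger peaks entered. The X ratio was then 1.30 (0.998 to 1.67), and within 30 kb of a TSS 1.16, both with intervals that include 1. With windows reaching 100 bp to either side the median GC content was 36.3%, TAATAA was at 24.4% and GTAAACA at 9.42% of members, since longer windows hold more sequence. Leaving out 1 replicate gave a median signal of 54.7 to 64.3, as each replicate's list has its own scale, and a median GC content of 33.7% to 34.7%. The shares of 5 of the 7 gene lists moved with the stronger peaks. No paired analysis was possible because there was 1 group and its replicate numbers are shared with no other group. Read depth is unknown, so members near the lowest signal, 76.2, cannot be weighed against depth.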
